A study of Mus musculus with 44 samples.

Results

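The protein kinase C isoforms were followed in the left ventricle of mice that carry an activated form of 1 of them. All probe sets whose only gene symbol in the platform annotation is Prkce, Prkca, Prkcb, Prkcd, Prkch, Prkci, Prkcq or Prkcz were taken, which gave 13 probe sets for the 8 genes out of 22626 probe sets tested. Prkce, Prkca, Prkcb, Prkci and Prkcz have 2 probe sets each, and Prkcd, Prkch and Prkcq have 1 each. RNA came from 44 mice, with 1 array per mouse, and the mice fell into 4 groups. PKCε mice carry a constitutively active (A159E) rabbit PKCε transgene that the mouse Myh6 promoter restricts to cardiomyocytes, on an FVB/N background, and develop dilated cardiomyopathy. The controls were nontransgenic (wild-type) FVB/N mice. From 3 months of age, mice of each line received intraperitoneal injections, 2 per week at 30 mg/kg, of nonimmune mouse IgG or of FG-3149, an antibody that binds CTGF, the growth factor encoded by Ccn2. After 3 months of injections, at 6 months of age, the left ventricle was frozen. The groups were FVB/N with IgG (n = 10, 7 females and 3 males), FVB/N with FG-3149 (n = 12), PKCε with IgG (n = 10) and PKCε with FG-3149 (n = 12), with equal numbers of each sex in the last 3 groups. The controls were purchased and the PKCε mice came from a separate colony, so the transgene and other differences between the colonies cannot be told apart.

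Protein kinase C enzymes are serine and threonine kinases that carry signals from receptors coupled to phospholipase C. The conventional isoforms, here PKCα and PKCβ, need calcium and diacylglycerol, another class, here PKCδ, PKCε, PKCη and PKCθ, needs diacylglycerol but no calcium, and the atypical isoforms PKCι and PKCζ respond to neither. In the heart, PKCα is known as a regulator of contractility, PKCε for its part in preconditioning and hypertrophic growth, and PKCδ for its part in the response to injury.

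Each deposited value is a ratio of a probe set's level on an array to its median over all arrays. A log2 ratio of 0 is therefore that median, and the isoforms' levels cannot be set against each other. The number of arrays limits the precision of every comparison. In these bulk samples, fewer cells of a type and less RNA per cell cannot be told apart. Tests were made in 1 limma model of group and sex over all 44 arrays, and a probe set was called at a Benjamini-Hochberg adjusted p under 0.05 over all 22626 probe sets.

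Some arrays stood apart. A level of atrial muscle RNA (Sln, Myl7, Myl4) above 4 on the log2 scale was found on 5 FVB/N IgG, 1 FVB/N FG-3149, 2 PKCε IgG and 2 PKCε FG-3149 arrays. The mean of the lung markers reached 5.09 on PKCε IgG replicate 9. FVB/N FG-3149 replicate 11, labelled female, had a log2 ratio of 3.63 for the Y-linked gene Uty, against at most 0.023 in the other females and at least 3.78 in the males. Values without these arrays are given where they change a call. The ventricular cardiomyocyte markers, which define the labelled tissue, were measured for 13 of 13 genes. Their mean log2 ratio ranged over the 4 groups from -0.34 to 0.24, but a ratio does not show how strongly a marker was expressed.

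The PKCε line was first compared with FVB/N under IgG. Of the 13 probe sets, 7 were called, 6 higher and 1 lower in PKCε mice, and they belonged to Prkce, Prkca, Prkcb, Prkcd and Prkci. Over all probe sets tested, 40.9% were called, 20.4% higher and 20.6% lower. The median log2 difference was 0.22 over the 13 probe sets and -0.041 over all probe sets.

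**Figure D1:**
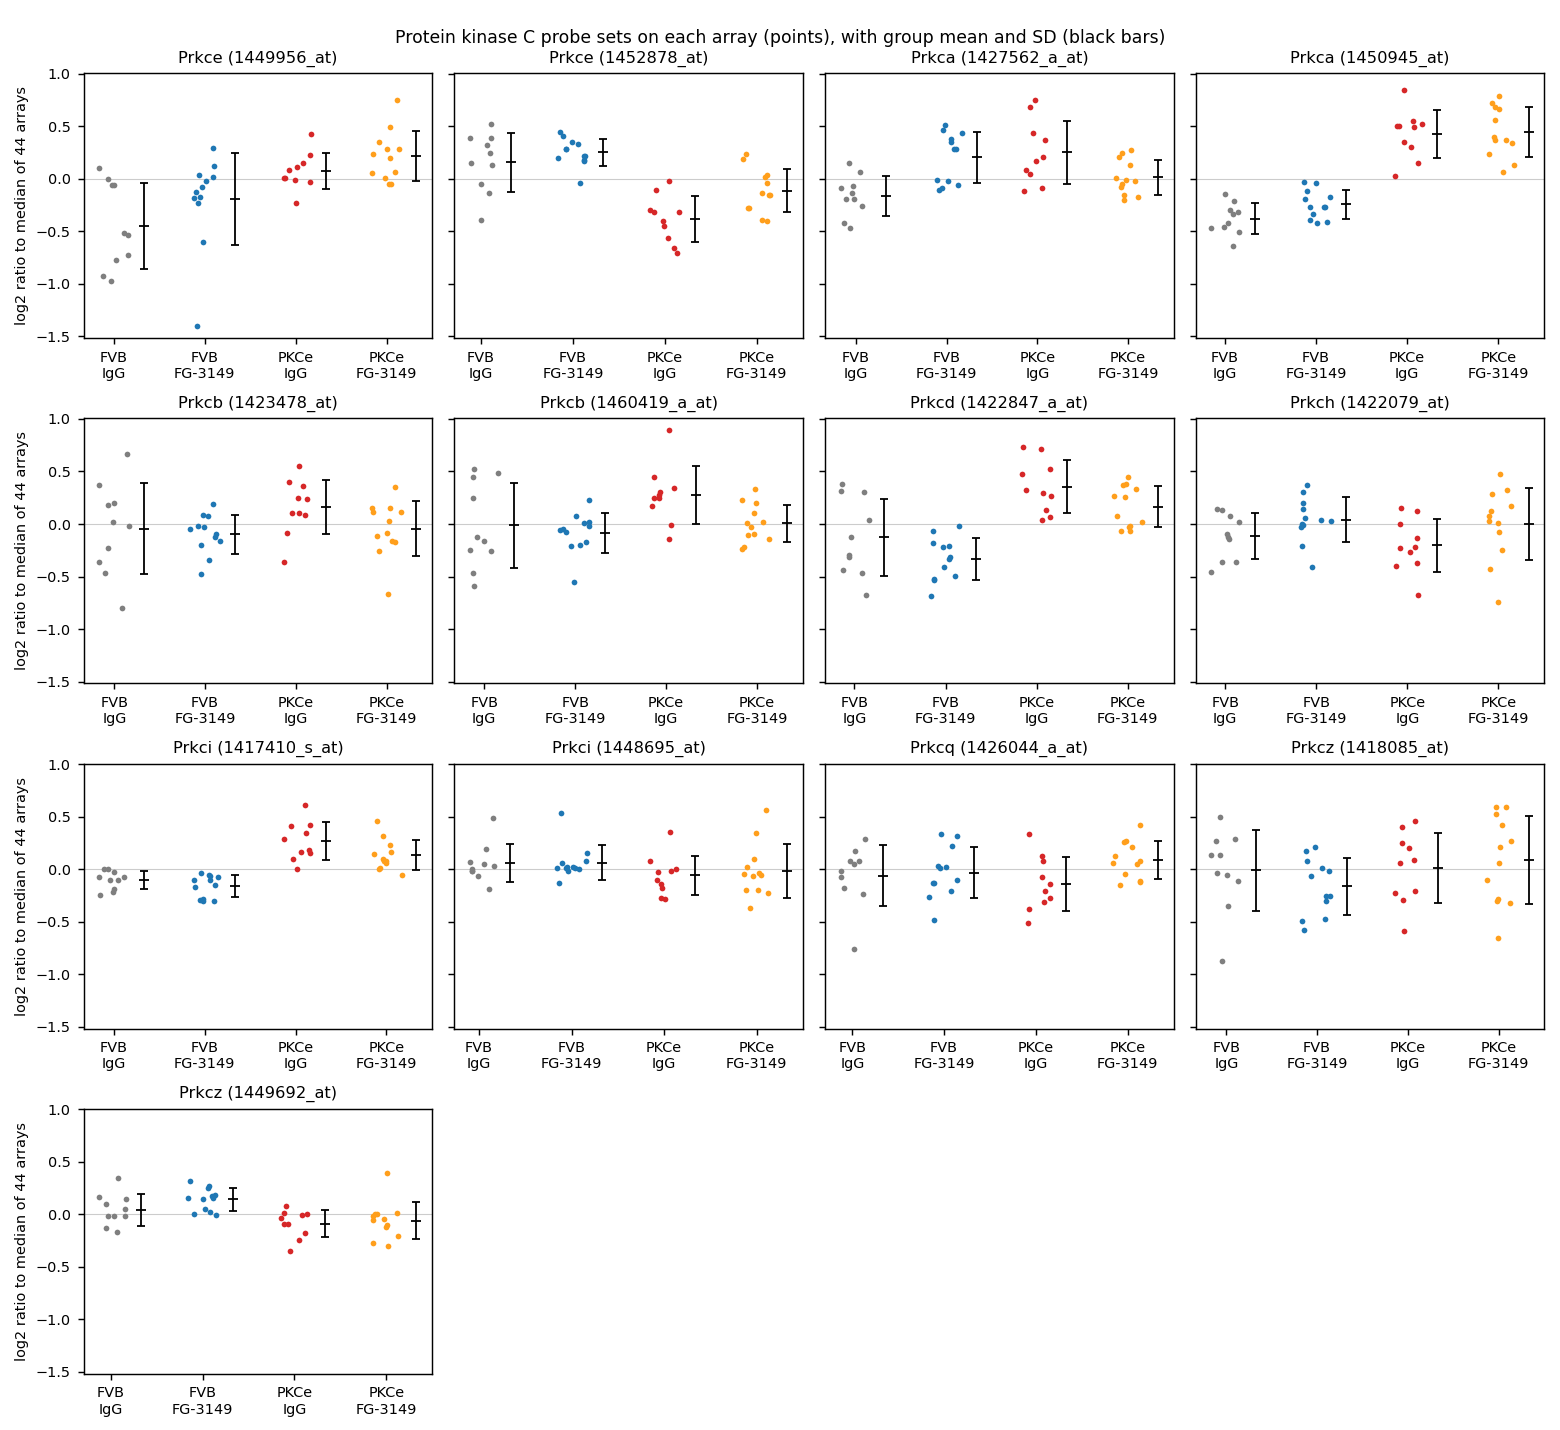
Log2 ratio of each of the 13 protein kinase C probe sets (1 panel each) on each of the 44 arrays, by group. Points are arrays and black bars are group means with SD. For Prkca 1450945_at all 10 PKCε IgG arrays lie above all 10 FVB/N IgG arrays, while the group ranges of Prkcq 1426044_a_at overlap widely.

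Prkce, the mouse gene of the isoform that the transgene encodes, gave opposite answers with its 2 probe sets. On probe set 1449956_at the FVB/N IgG arrays ran from -0.97 through a median of -0.53 to 0.11, and the PKCε IgG arrays from -0.23 through 0.045 to 0.43. The ranges overlapped, 4 of 10 PKCε arrays lay above every FVB/N array, and 10 of 10 lay above the FVB/N median. The difference was 0.49 ± 0.14 (SE) on the log2 scale, which is 1.40-fold, with an adjusted p of 0.00625.

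On Prkce probe set 1452878_at the FVB/N IgG arrays ran from -0.39 through 0.20 to 0.52, and the PKCε IgG arrays from -0.71 through -0.35 to -0.023. Here 5 of 10 PKCε arrays lay below every FVB/N array and 10 of 10 below the FVB/N median. The log2 difference was -0.57 ± 0.088 (SE), or 1.49-fold lower, with an adjusted p of 1.1e-06. Whether either probe set also reads the rabbit transcript was not tested, because probe sequences were not used here.

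The disagreement was itself tested. The PKCε difference on 1449956_at exceeded that on 1452878_at by 1.06 ± 0.13 (SE, adjusted p = 8.82e-08 in limma over all 12821 pairs of probe sets of the same gene). Such differences between probe sets of 1 gene were common, at 26.8% of pairs. Both probe sets were called in 3057 pairs, and in 330 of these, or 10.8%, they were called in opposite directions, as for Prkce. Within groups, however, the Prkce probe sets rose and fell together. After the mean of each group and sex was removed, Pearson's r between them was 0.49 over 44 arrays (permutation p = 0.00127, 0.00635 adjusted over the 5 isoforms with 2 probe sets) and Spearman's rho was 0.43 (permutation p = 0.00821, adjusted 0.0205). Without the 2 arrays farthest from the median, r was 0.50. The median r over all same-gene pairs was 0.24, with quartiles of 0.022 and 0.49.

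**Figure D2:**
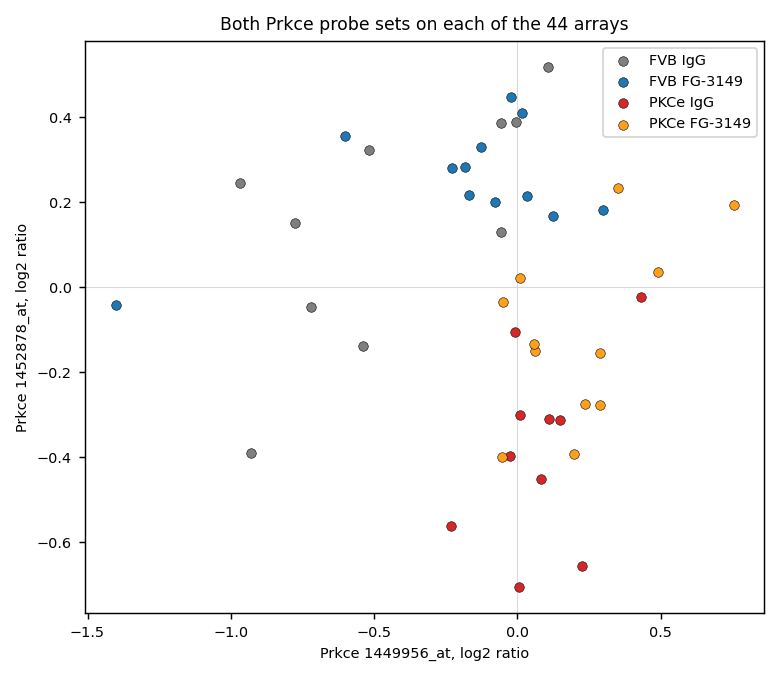
Log2 ratio of Prkce probe set 1449956_at (horizontal axis) against Prkce probe set 1452878_at (vertical axis), with 1 point for each of the 44 arrays, coloured by group. The PKCε IgG arrays lie to the right of and below most FVB/N IgG arrays, although r within groups is 0.49.

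The genes whose residuals resembled each Prkce probe set most were different. For 1449956_at the highest Pearson r over the 44 arrays was 0.67 for Ttpa, 0.64 for Shmt2 and 0.63 for Pfkfb3. For 1452878_at it was 0.76 for Polrmt, 0.72 for Gtf2h4 and 0.71 for Kif16b. These genes were picked as the highest of all, so the values describe likeness and carry no test.

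Prkca, which encodes the conventional isoform PKCα, was higher in PKCε mice on both probe sets. On 1450945_at the FVB/N IgG arrays ran from -0.64 through -0.38 to -0.15 and the PKCε IgG arrays from 0.028 through 0.50 to 0.85. The groups did not overlap, which was true in this direction of 2.38% of all probe sets. PKCε mice exceeded FVB/N mice by 0.80 ± 0.086 (SE) on the log2 scale, or 1.74-fold, with an adjusted p of 7.87e-10.

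On Prkca probe set 1427562_a_at the FVB/N IgG arrays ran from -0.47 through -0.16 to 0.15 and the PKCε IgG arrays from -0.11 through 0.19 to 0.75. The ranges overlapped, and 6 of 10 PKCε arrays lay above every FVB/N array. This gave a log2 difference of 0.41 ± 0.10 (SE, adjusted p = 0.00124), and the gap to 1450945_at was -0.39 ± 0.11 (SE, adjusted p = 0.00724 over all pairs). The suffix _a_at marks a probe set shared by several transcripts of a gene.

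Prkcd, which encodes the calcium-independent isoform PKCδ, was higher in PKCε mice. The FVB/N IgG arrays ran from -0.67 through -0.21 to 0.38 and the PKCε IgG arrays from 0.037 through 0.31 to 0.73. All 10 PKCε arrays lay above the FVB/N median and 4 above every FVB/N array. The log2 difference on probe set 1422847_a_at was 0.50 ± 0.11 (SE, adjusted p = 0.000373).

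Prkci, which encodes the atypical isoform PKCι of cell polarity complexes, was higher on 1417410_s_at. There the FVB/N IgG arrays ran from -0.25 through -0.088 to 0.0011 and the PKCε IgG arrays from 0.0020 through 0.24 to 0.61. The groups did not overlap, which was also true in this direction of 2.38% of all probe sets, but the gap between them was narrow. PKCε mice were higher by 0.39 ± 0.059 (SE, adjusted p = 1.08e-06). The suffix _s_at marks probes that can match transcripts of more than 1 gene, so this value is uncertain for Prkci alone.

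The other Prkci probe set, 1448695_at, was not called. Its FVB/N IgG arrays ran from -0.18 through 0.015 to 0.49 and its PKCε IgG arrays from -0.29 through -0.066 to 0.36. The log2 difference was -0.13 ± 0.088 (SE, adjusted p = 0.232), with a 95% interval from -0.31 to 0.049. The gap between the Prkci probe sets was 0.52 ± 0.11 (SE, adjusted p = 0.000653), and their residuals had an r of -0.0062 over the 44 arrays (permutation p = 0.97, rho -0.061 with permutation p = 0.718).

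For Prkca, Prkcd and Prkci, each with a probe set called higher in PKCε mice under both treatments, the 150 bases before their RefSeq starts are shown as reference sequence of build GRCm38.p6, 5′ to 3′ on the gene's strand. Capitals mark the GC box, searched as GGGCGG or CCGCCC. Prkca lies on the minus strand at chr11:108343889-108344038, Prkci on the plus strand at chr3:30995621-30995770, and Prkcd has starts on the minus strand after chr14:30626209-30626358 and chr14:30610311-30610460.
Prkca: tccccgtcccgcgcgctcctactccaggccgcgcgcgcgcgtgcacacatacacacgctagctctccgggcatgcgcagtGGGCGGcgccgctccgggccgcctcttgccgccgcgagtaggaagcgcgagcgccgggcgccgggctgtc
Prkci: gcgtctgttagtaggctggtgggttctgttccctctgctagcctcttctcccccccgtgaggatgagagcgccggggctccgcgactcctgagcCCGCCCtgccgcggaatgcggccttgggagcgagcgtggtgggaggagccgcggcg
Prkcd start 2: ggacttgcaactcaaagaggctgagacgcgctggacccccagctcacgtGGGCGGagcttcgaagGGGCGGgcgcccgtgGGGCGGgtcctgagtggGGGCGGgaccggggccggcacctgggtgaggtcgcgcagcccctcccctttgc
Prkcd start 1: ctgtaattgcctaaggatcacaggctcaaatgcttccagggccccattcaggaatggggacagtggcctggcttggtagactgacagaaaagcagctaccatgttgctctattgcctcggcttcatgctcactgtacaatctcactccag
The Prkca and Prkci windows held 1 GC box each, the upstream Prkcd window 4 and the downstream one 0. A GC box was found in 28.6% of the 32851 promoter windows of the same length. None of these 4 windows held a CCAAT box (CCAAT or ATTGG, in 24.5% of all windows) or a TATA box (TATAAA or TTTATA, in 7.57%). The RefSeq table gave starts for 6 of the 8 genes. These matches describe letters in a window and were not set against any binding measurement.

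Prkcb, which encodes the conventional isoform PKCβ, gave a small difference that depended on single arrays. On 1460419_a_at the FVB/N IgG arrays ran from -0.59 through -0.14 to 0.52 and the PKCε IgG arrays from -0.14 through 0.26 to 0.89. The log2 difference was 0.31 ± 0.12 (SE, adjusted p = 0.0349), and 1 of 10 PKCε arrays lay above every FVB/N array. That array was PKCε IgG replicate 9, the one with high lung markers, and without it the difference was 0.24 with an adjusted p of 0.103. The call was lost in 8 of the 44 fits that left out 1 array each, those without FVB/N IgG replicate 4, 5, 6, 7, 9 or 10 or without PKCε IgG replicate 6 or 9. On 1423478_at the FVB/N IgG arrays ran from -0.80 through -0.0031 to 0.67, the PKCε IgG arrays from -0.36 through 0.17 to 0.55, and the difference of 0.22 ± 0.13 (SE) was not called (adjusted p = 0.162). The Prkcb probe sets did not differ from each other beyond their error (gap -0.087, adjusted p = 0.66), and their residuals had an r of 0.47 over 44 arrays (permutation p = 0.0106, adjusted 0.0265). The rho was 0.47 (permutation p = 0.00564, adjusted 0.0205), and r without the 2 farthest arrays was 0.41.

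The remaining isoforms were not called under IgG. For Prkch, which encodes PKCη, the FVB/N IgG arrays ran from -0.46 through -0.11 to 0.14 and the PKCε IgG arrays from -0.68 through -0.22 to 0.16, a difference of -0.13 ± 0.10 (SE, 95% interval -0.34 to 0.078, adjusted p = 0.303). For Prkcq, which encodes PKCθ of T cells and skeletal muscle, they ran from -0.76 through 0.019 to 0.28 and from -0.51 through -0.18 to 0.33, a difference of -0.063 ± 0.11 (SE, 95% interval -0.28 to 0.15, adjusted p = 0.648). Both pairs of ranges overlapped almost fully.

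For Prkcz, which encodes the atypical isoform PKCζ, probe set 1418085_at ran from -0.87 through 0.053 to 0.49 in FVB/N IgG and from -0.58 through 0.072 to 0.46 in PKCε IgG, with a difference of 0.094 ± 0.14 (SE, 95% interval -0.18 to 0.37, adjusted p = 0.586). Prkcz 1449692_at ran from -0.17 through 0.016 to 0.35 and from -0.35 through -0.061 to 0.077, with a difference of -0.15 ± 0.065 (SE, adjusted p = 0.0622). On this probe set 9 of 10 PKCε arrays lay below the FVB/N median. The T cell markers, which bear on Prkcq, had 0 of 11 probe sets higher and 1 lower in PKCε mice, and the B cell markers, which bear on Prkcb, 0 of 17 higher and 1 lower. Single arrays differed, with B cell means of 1.46, 1.60 and 0.76 on FVB/N IgG replicates 1, 2 and 3 and 0.96 on PKCε IgG replicate 4. Prkcb 1460419_a_at was 0.52, 0.49, 0.45 and 0.25 on these arrays, in that order, and Prkcb 1423478_at was 0.37, 0.20, -0.023 and 0.11. The highest value of 1423478_at, 0.67, was on FVB/N IgG replicate 8, where the B cell mean was 0.065. The part of B cells in the Prkcb values was not tested.

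**Figure D3:**
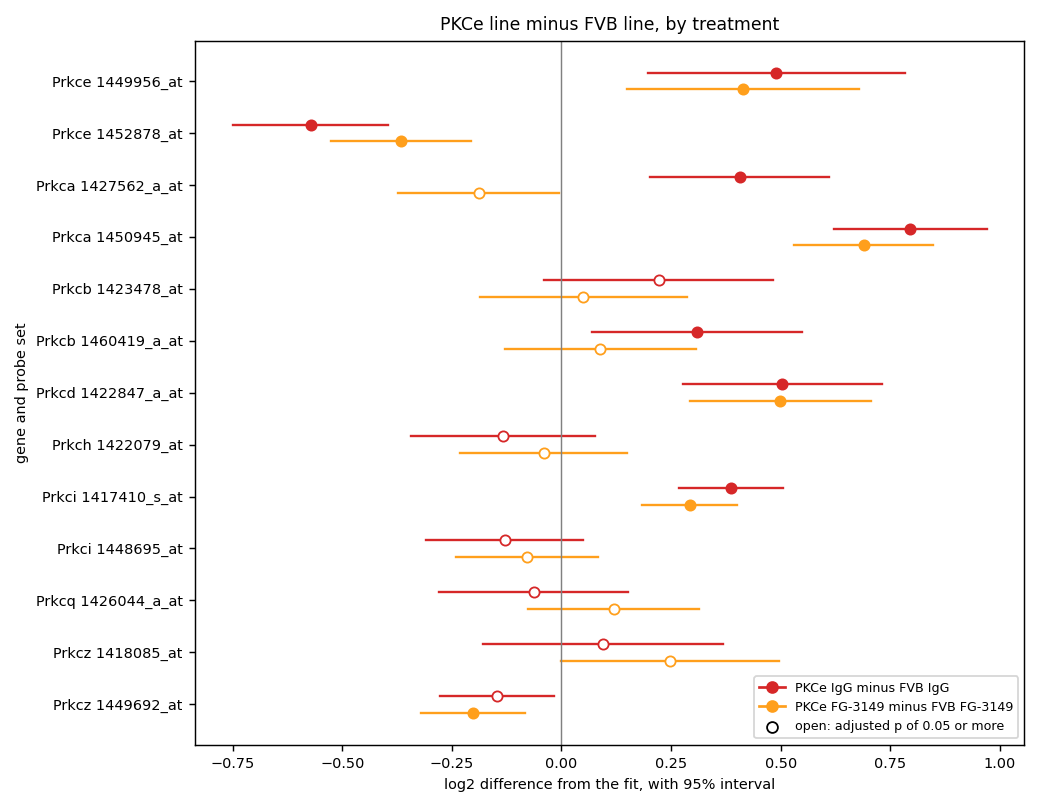
Log2 difference of PKCε minus FVB/N for each of the 13 probe sets, under IgG (red) and under FG-3149 (orange), with 95% intervals from limma and filled points where called. Prkce appears on both sides of 0, at 0.49 and -0.57 under IgG, and Prkca 1450945_at lies farthest to the right, at 0.80 and 0.69.

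Markers of other cells moved with the line. The 10 fibroblast marker genes had 15 of 16 probe sets higher in PKCε mice under IgG, and their mean log2 ratio ran from -0.82 to 0.21 in FVB/N IgG and from 0.24 to 1.44 in PKCε IgG (permutation p = 2e-05, the smallest these permutations can give, and 0.000427 adjusted over 64 such tests). With that mean as a covariate, chosen after the data were seen, 8.82% of all probe sets were called, and 1 isoform probe set, Prkca 1450945_at, at a difference of 0.51 (adjusted p = 0.0297). The Prkci 1417410_s_at difference was then 0.050 (adjusted p = 0.82). The differences of Prkcd and Prkcb 1460419_a_at changed sign, to -0.28 (adjusted p = 0.29) and -0.49 (adjusted p = 0.0555). The Prkce differences were then 0.70 (adjusted p = 0.0997) on 1449956_at and -0.23 (adjusted p = 0.41) on 1452878_at. Since the fibroblast mean and the line did not overlap under IgG, their shares in these differences cannot be told apart. The adipocyte marker mean differed between PKCε and FVB/N mice by -1.33 under IgG (permutation p = 0.001, adjusted 0.0064) and by 0.00051 under FG-3149 (permutation p = 0.998), and its part in the isoform values was not tested.

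The ventricular cardiomyocyte markers had 2 of 24 probe sets higher and 12 lower in PKCε mice under IgG. With their mean as a covariate, also chosen after the data were seen, the Prkcd difference was 0.21 (adjusted p = 0.357) and that of Prkcb 1460419_a_at -0.13 (adjusted p = 0.556), while both Prkca and both Prkce probe sets were still called, where 17% of all probe sets were. The difference between Gapdh's 3′ and 5′ control probe sets, a sign of RNA integrity, was higher by 0.33 with the transgene under IgG (permutation p = 0.00012, adjusted 0.00154). The same measure for Actb differed by -0.011 (permutation p = 0.899, adjusted 0.928). With the Gapdh difference as a covariate the Prkce differences were 0.64 (adjusted p = 0.00424) and -0.59. Without the 10 arrays of high atrial RNA, Prkce 1449956_at was 0.37 (adjusted p = 0.131) and Prkca 1427562_a_at was 0.31 (adjusted p = 0.066), both no longer called, while Prkce 1452878_at was -0.74 and Prkca 1450945_at was still called.

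The line was then compared under FG-3149, in 24 mice that were not in the groups compared under IgG. Both comparisons came from the same fit, with a shared spread estimate and sex term, and line and colony differ together in both. Under FG-3149, 6 of the 13 probe sets were called, 4 higher and 2 lower. Among all probe sets 45.2% were called, 20.6% higher and 24.5% lower. Prkca 1450945_at ran from -0.42 through -0.27 to -0.028 in FVB/N and from 0.063 through 0.39 to 0.79 in PKCε mice, with no overlap (2.28% of all probe sets in this direction). Its log2 difference was 0.69 ± 0.078 (SE, adjusted p = 2.76e-09). Prkcd was higher by 0.50 ± 0.10 (SE, adjusted p = 0.000127), with 8 of 12 PKCε arrays above every FVB/N array. Prkci 1417410_s_at was higher by 0.29 ± 0.053 (SE, adjusted p = 2.54e-05), with 11 of 12 above.

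The Prkce probe sets were again called in opposite directions. Probe set 1449956_at ran from -1.40 through -0.10 to 0.30 in FVB/N FG-3149 and from -0.053 through 0.22 to 0.75 in PKCε FG-3149, a difference of 0.41 ± 0.13 (SE, adjusted p = 0.0101). Probe set 1452878_at ran from -0.042 through 0.25 to 0.45 and from -0.40 through -0.14 to 0.23, a difference of -0.37 ± 0.079 (SE, adjusted p = 0.000272). Both ranges overlapped, and all 12 PKCε arrays lay above the FVB/N median on the first and below it on the second. The gap between the probe sets was 0.78 ± 0.12 (SE, adjusted p = 4.01e-06), and 11.8% of same-gene pairs with both members called went in opposite directions.

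Prkcz 1449692_at was called lower in PKCε mice under FG-3149, with a log2 difference of -0.20 ± 0.058 (SE, adjusted p = 0.00509), with 8 of 12 PKCε arrays below every FVB/N array. Prkcz 1418085_at had a difference of 0.25 ± 0.12 (SE, adjusted p = 0.0943), and the gap between the Prkcz probe sets was 0.45 (adjusted p = 0.0198). Prkca 1427562_a_at had a difference of -0.19 ± 0.091 (SE, adjusted p = 0.0848), and the gap between the Prkca probe sets was -0.88 ± 0.10 (SE, adjusted p = 1.67e-08). The differences of the other uncalled probe sets ran from -0.078 for Prkci 1448695_at to 0.12 for Prkcq. The fibroblast marker mean was again higher in PKCε mice, by 1.13 (permutation p = 2e-05), and 15 of 16 of its probe sets were called higher. With it as a covariate 7.12% of all probe sets were called, and 1 isoform probe set, Prkcb 1460419_a_at at -0.66 (adjusted p = 0.00579). Prkca 1450945_at was then 0.42 (adjusted p = 0.0634), Prkce 1452878_at was -0.041 (adjusted p = 0.919) and Prkcd was -0.24 (adjusted p = 0.36). The fibroblast mean ran from -1.13 to -0.52 in FVB/N FG-3149 and from -0.019 to 0.99 in PKCε FG-3149, without overlap. Under FG-3149 too, the shares of this mean and of the line therefore cannot be told apart.

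The antibody was compared with IgG in PKCε mice to ask whether CTGF inhibition altered the isoforms in the diseased ventricle. These contrasts use the same IgG arrays as the comparison of the lines, so the values are given side by side and not tested against each other. Of the 13 probe sets, 1 was called, where 8.38% of all probe sets were called, 4.55% higher and 3.83% lower. It was Prkce 1452878_at, which ran from -0.71 through -0.35 to -0.023 under IgG and from -0.40 through -0.14 to 0.23 under FG-3149. Of the 12 FG-3149 arrays 4 lay above every IgG array and 10 above the IgG median. The log2 difference was 0.27 ± 0.083 (SE, adjusted p = 0.0332), and in 8 of the 44 fits without 1 array it was not called (adjusted p from 0.051 to 0.0714; PKCε IgG replicates 3, 6, 7 and 9 and PKCε FG-3149 replicates 3, 7, 10 and 12). The Gapdh value differed between these groups by -0.26 (permutation p = 0.00096, adjusted 0.0064), and with it as a covariate the Prkce difference was 0.28 (adjusted p = 0.0895). Prkce 1449956_at had a difference of 0.14 ± 0.14 (SE, 95% interval -0.13 to 0.42, adjusted p = 0.599).

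Prkca 1450945_at separated the lines without overlap under both treatments. In PKCε mice it differed between antibody and IgG by 0.021 ± 0.082 (SE), with a 95% interval from -0.14 to 0.19 (adjusted p = 0.92). Differences for the other probe sets higher in the line were -0.24 ± 0.096 for Prkca 1427562_a_at (adjusted p = 0.116), -0.27 ± 0.11 for Prkcb 1460419_a_at (0.132), -0.19 ± 0.11 for Prkcd (0.307) and -0.14 ± 0.056 for Prkci 1417410_s_at (0.131). None of these was called. Prkcq had a difference of 0.22 ± 0.10 (SE, adjusted p = 0.178), with 12 of 12 FG-3149 arrays above the IgG median. Of the 13 probe sets 6 had an unadjusted p under 0.05 in this comparison, against 4941 of all 22626 probe sets.

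**Figure D4:**
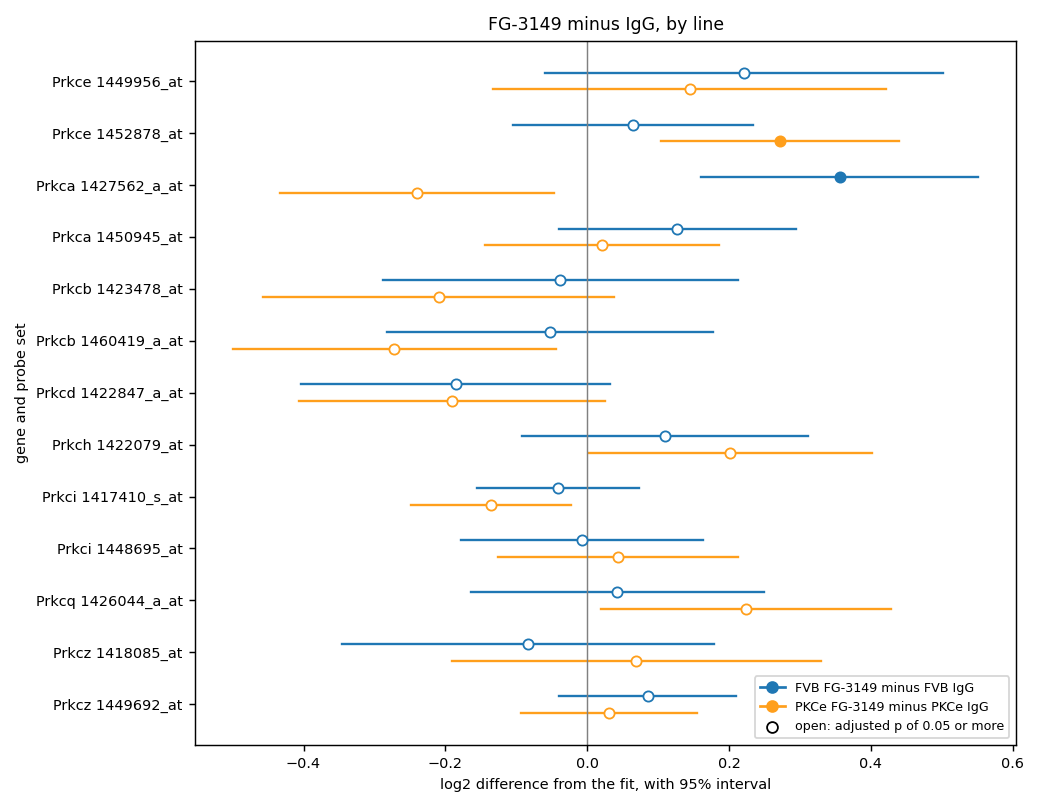
Log2 difference of FG-3149 minus IgG for each of the 13 probe sets, in PKCε and in FVB/N mice, with 95% intervals from limma and filled points where called. Prkce 1452878_at is called in PKCε mice at 0.27 and Prkca 1427562_a_at in FVB/N mice at 0.36.

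In FVB/N mice the antibody comparison also called 1 of 13 probe sets, where 8.35% of all probe sets were called, 4.13% higher and 4.22% lower. It was Prkca 1427562_a_at, which ran from -0.47 through -0.16 to 0.15 under IgG and from -0.10 through 0.29 to 0.52 under FG-3149. Of the FG-3149 arrays 7 of 12 lay above every IgG array and 12 of 12 above the IgG median. The log2 difference was 0.36 ± 0.097 (SE, adjusted p = 0.0151), and without replicate 11 of the FG-3149 group it was 0.33 (adjusted p = 0.033). The other Prkca probe set, 1450945_at, had a difference of 0.13 ± 0.083 (SE, adjusted p = 0.392).

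The antibody difference of Prkca 1427562_a_at was 0.36 in FVB/N and -0.24 in PKCε mice, and the difference between the lines was -0.60 ± 0.14 (SE, adjusted p = 0.00661). It was the 1 isoform probe set of 13 called, where 3.95% of all probe sets were called, 2.03% higher and 1.92% lower. As group means, the log2 ratios were -0.16 ± 0.19 (SD, n = 10) in FVB/N IgG, 0.20 ± 0.24 (SD, n = 12) in FVB/N FG-3149, 0.25 ± 0.30 (SD, n = 10) in PKCε IgG and 0.015 ± 0.16 (SD, n = 12) in PKCε FG-3149. The corresponding value of Prkca 1450945_at was -0.11 ± 0.12 (SE, adjusted p = 0.75), and the gap between the probe sets was -0.49 ± 0.15 (SE, adjusted p = 0.0537).

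The mean atrial level was 4.28 in FVB/N IgG and -0.55 in FVB/N FG-3149 (permutation p = 0.00396, adjusted 0.0181). In the same comparison the antibody minus IgG differences of other marker means were -1.25 for adipocytes (permutation p = 0.00098, adjusted 0.0064), -0.42 for fibroblasts (adjusted 0.0147) and -0.35 for macrophages (adjusted 0.0406). The part of these markers in the isoform values was not tested beyond the covariates and subsets given. Without the 10 arrays of high atrial RNA, the antibody difference of Prkca 1427562_a_at in FVB/N mice was 0.26 (adjusted p = 0.403, with 1.79% of all probe sets called), and the difference between the lines was -0.52 (adjusted p = 0.148, with 1.06% called). The difference between the lines was -0.57 (adjusted p = 0.0118) without FVB/N FG-3149 replicate 11 and -0.69 (adjusted p = 0.00061) with the Gapdh difference as a covariate.

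**Figure D5:**
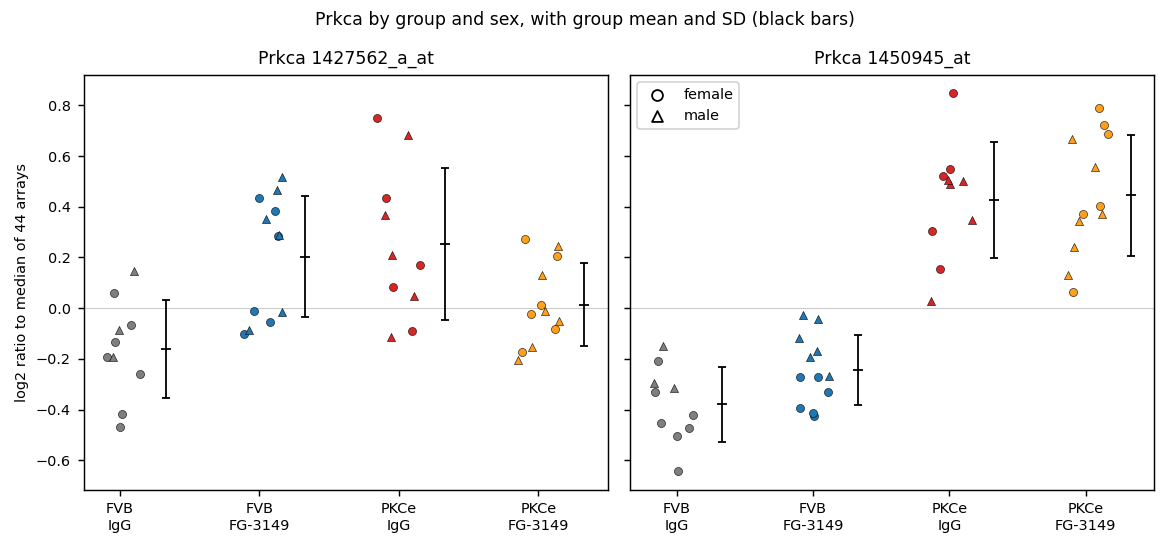
Log2 ratio of both Prkca probe sets on each array in the 4 groups, with group means and SD as black bars, circles for females and triangles for males. Probe set 1450945_at separates the lines under both treatments, while 1427562_a_at is lowest in FVB/N IgG, with a mean of -0.16, and highest in PKCε IgG, with a mean of 0.25.

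Sex was compared over all groups. Prkch and Prkcz 1418085_at were called, 2 of 13 probe sets, where 14.9% of all probe sets were called, 8.11% higher and 6.77% lower in females. Prkch was lower in females, with a log2 difference of -0.23 ± 0.071 (SE, adjusted p = 0.0213), and its group means were lower in females in 4 of 4 groups. Prkcz 1418085_at was higher in females by 0.35 ± 0.092 (SE, adjusted p = 0.00803). Its female and male means were 0.13 and -0.35 in FVB/N IgG, -0.20 and -0.13 in FVB/N FG-3149, 0.28 and -0.25 in PKCε IgG, and 0.35 and -0.18 in PKCε FG-3149. In PKCε IgG the females ran from 0.088 to 0.46 and the males from -0.58 to 0.055. In PKCε FG-3149 the females ran from -0.10 to 0.60 and the males from -0.66 to 0.42. The sexes overlapped in PKCε FG-3149 and in both FVB/N groups, but not in PKCε IgG. How many of all probe sets part the sexes without overlap was not counted. Without FVB/N FG-3149 replicate 11 the Prkcz 1418085_at difference was 0.38 (adjusted p = 0.0031). Without the arrays of high atrial RNA the difference was 0.29 (adjusted p = 0.0871) for Prkcz 1418085_at and -0.12 (adjusted p = 0.284) for Prkch. The other Prkcz probe set, 1449692_at, had a difference of -0.062 (adjusted p = 0.323), and the gap between the Prkcz probe sets was 0.41 ± 0.11 (SE, adjusted p = 0.0278), as called in 3.45% of same-gene pairs.

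Within the IgG mice, a difference of the line effect between the sexes was called by limma for 0 of 13 probe sets, where 0.0751% of all probe sets were called. Of the 13, 1 had an unadjusted p under 0.05, against 1710 of all 22626, and it was Prkcq, at a difference of 0.48 ± 0.21 (SE, adjusted p = 0.619). In females under IgG the line effect was called for 6 of 13 probe sets, 5 higher and 1 lower (40.3% of all probe sets, 19.4% higher and 20.9% lower). In males under IgG it was called for 5, 4 higher and 1 lower (13.3% of all, 6.98% higher and 6.35% lower). Under IgG, Prkca 1450945_at was higher in PKCε mice by 0.91 ± 0.11 (SE) in females and 0.63 ± 0.13 (SE) in males, and Prkce 1452878_at had differences of -0.57 ± 0.12 and -0.60 ± 0.15. Prkce 1449956_at had a difference of 0.38 ± 0.19 in females, which was not called (adjusted p = 0.0996). In males its difference was 0.70 ± 0.24 (adjusted p = 0.0439).

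The genes around the kinases were taken from lists, and their counts refer to PKCε against FVB/N under IgG. In this comparison 40.9% of all probe sets were called, 20.4% higher and 20.6% lower. The list counts were not tested against these shares. Of the receptors, G proteins and phospholipases upstream, 12 of 17 genes were measured, and 6 of 19 probe sets were higher and 3 lower, with a median of 0.10 against -0.041 over all probe sets. Plcg2, a phospholipase C that makes diacylglycerol, was higher by 1.04 ± 0.077 (SE, adjusted p = 4.5e-14), and Gna11, the alpha subunit of a G protein that activates phospholipase C, by 0.42 ± 0.049 (adjusted p = 4.54e-09). Of the diacylglycerol kinases, which remove the activating lipid, 4 of 9 genes were measured, with 1 of 6 probe sets higher and 1 lower. Dgkq had a difference of -0.27 ± 0.078 (adjusted p = 0.00516) and Dgka one of 0.17 ± 0.072 (adjusted p = 0.0472).

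Of the anchors and scaffolds, 10 of 12 genes were measured, and 5 of 15 probe sets were higher and 1 lower, with a median of 0.036. Among all probe sets, 20.4% were called higher and 20.6% lower. Cavin3, a caveolar protein that binds PKCδ, was higher by 0.66 ± 0.088 (adjusted p = 7.3e-08), and Akap12, a scaffold for kinases, by 0.50 ± 0.080 (adjusted p = 2.28e-06). Of the substrates and targets, 14 of 15 genes were measured, and 19 of 35 probe sets, of 8 genes, were higher and 0 lower, with a median of 0.21. Marcks, the myristoylated substrate that PKC releases from the membrane, was higher by 0.89 ± 0.086 on 1415973_at (adjusted p = 4.14e-11), and Ppp1r14b, a phosphatase inhibitor that PKC phosphorylates, by 0.72 ± 0.077 (adjusted p = 6.33e-10). Of the related kinases, chaperones and phosphatases, 3 of 9 genes were measured, with 3 of 6 probe sets higher and 1 lower. Hsp90aa1, a chaperone of kinases, was higher by 0.47 ± 0.066 on 1438902_a_at (adjusted p = 2.22e-07), and Phlpp1, a phosphatase that acts on PKC, had a difference of -0.14 ± 0.052 (adjusted p = 0.0297).

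With the antibody in PKCε mice, 8 of 35 probe sets of the substrates were lower and 0 higher, with a median of -0.071 against 0.014 over all probe sets, of which 3.83% were called lower and 4.55% higher. They were 5 of Marcks, 2 of Ppp1r14b and 1 of Prkd3, and Marcks 1415973_at had a difference of -0.34 ± 0.081 (SE, adjusted p = 0.00605). The fibroblast marker mean differed with the antibody by -0.42 in PKCε mice (permutation p = 0.0161, adjusted 0.0574), with 8 of 16 probe sets called lower, and its part in these values was not tested. In the other lists of kinase partners, Cavin3 (-0.28, adjusted p = 0.0274), Pard6b 1423175_s_at (0.24, adjusted p = 0.0358) and Hsp90aa1 1437497_a_at (-0.30, adjusted p = 0.0143) were called in this comparison. None of the 19 upstream probe sets and none of the 6 diacylglycerol kinase probe sets was called by limma. In FVB/N mice the antibody comparison called 1 of 35 substrate probe sets higher, Ppp1r14b 1450914_at at 0.28 (adjusted p = 0.0113), and 1 lower. Ppp1r14b 1436716_at was -0.030 (adjusted p = 0.891). In the other lists, Hsp90aa1 1426645_at (0.72, adjusted p = 4.27e-05) and Pard3 1420391_at (0.49, adjusted p = 0.00235) were called higher. Gna11 1434254_at was also called higher (0.16, adjusted p = 0.0272), and Dgkz 1452169_a_at lower (-0.27, adjusted p = 0.0103). Other probe sets of these genes were not called. Among all probe sets, this comparison called 4.13% higher and 4.22% lower.

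Values of the promoter's gene and of the antibody's target are given for reference. Myh6, whose promoter drives the transgene, was lower in PKCε mice under IgG, with a log2 difference of -1.49 ± 0.14 on 1417729_at (SE, adjusted p = 2.53e-11) and of -0.17 ± 0.036 on 1448826_at (SE, adjusted p = 0.000215). Ccn2, which encodes the factor that FG-3149 binds, was higher by 0.74 ± 0.23 (SE, adjusted p = 0.00795).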

How the data were processed

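Total RNA from frozen left ventricle was amplified from 250 ng and hybridized to Affymetrix 430A 2.0 arrays, per the labels' protocols. Per the series' design text, the authors processed the arrays with GCRMA and rescaled each gene to its median in GeneSpring GX 7.3.1. The deposited values are therefore linear ratios to each probe set's median over the 44 arrays; each median lay within 0.001 of 1, so levels, brightness and detection were not available to the tests. A genome build is not given in the sources used here.

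Ratios were taken to log2. After 64 control probe sets were left out, limma 3.58.1 in R 4.3.3 was fitted to 22626 probe sets with group and sex over all 44 arrays, and p-values were adjusted by Benjamini-Hochberg over all of them. A second fit with a mean per group and sex gave the line and antibody differences within each sex. The replicate numbers did not pair samples, so no block was used. No array run or batch was among the terms of the fits, and its part in the line differences was not tested. Marker means were compared by two-sided permutation tests with 100000 resamples, adjusted over 64 tests. Differences between probe sets of 1 gene were fitted for 12821 pairs of 4956 genes. The model was tested on simulated data with known changes.

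Members, gene lists, markers and tests were chosen with earlier results of these data known. Genes named beside the isoforms are, for each list, up to 2 with the lowest p among those called under IgG, for each Prkce probe set the 3 with the highest residual correlation, and Myh6 and Ccn2. Prkd3, Pard6b, Pard3 and Dgkz were named after their values were seen. The platform annotation gave 1 gene to 20393 probe sets, several to 691 and none to 1606. Alternatives covered the sex term, covariates, blocks, normalization, probe set summaries, thresholds, subsets of samples and each array left out. Promoter sequences are from RefSeq, build GRCm38.p6.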

Additional observations from a re-analysis of the deposited data

Results flagged for a closer look

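Prkcq 1426044_a_at in FVB/N IgG replicate 2 had a log2 ratio of -0.76, the lowest of its group by a gap to the next array that was large for the range of the 10 arrays. It was the 1 such case among the 26 sets examined (13 probe sets in each of the 2 IgG groups), where chance gives about 1 in 20.

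The antibody difference of Prkca 1427562_a_at, on the log2 scale, differed between PKCε and FVB/N mice by -0.60, as tested by the interaction of line and antibody in limma (adjusted p = 0.00661).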

How the results depend on the processing

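Across the alternatives run, 1412 of the single probe set values kept their direction and side of the threshold or were uncalled in both fits, 18 gained a call, 52 lost one and 7 reversed. All 7 came with a marker mean as covariate, the fibroblast one without overlap between the lines under either treatment. With the fibroblast mean, under IgG, Prkcb 1460419_a_at was -0.49 and Prkcd -0.28; under FG-3149, Prkcb 1460419_a_at was -0.66, Prkcd -0.24, Prkci 1417410_s_at -0.024 and Prkcz 1449692_at 0.062. With the ventricular mean, under IgG, Prkcb 1460419_a_at was -0.13. Under IgG the line comparison called 7 isoform probe sets, against 4 genes with 1 probe set per gene (that of largest SD) or with the mean of a gene's probe sets, and 1 with the fibroblast covariate. Under FG-3149 it called 6, against 3 with the mean of probe sets, 3 in males only and 1 with the fibroblast covariate. The antibody comparison in PKCε mice called 1, against 2 with the atrial level as a covariate and 0 with no sex term, the replicate block, quantile normalization, 1 probe set per gene, the mean of probe sets, females only, males only, an adjusted p under 0.01, the fibroblast or ventricular covariate, or without PKCε IgG replicates 9 and 10. In FVB/N mice it called 1 (8.35% of all probe sets), against 0 with 1 probe set per gene, females only (2.85%), males only (0.407%), the atrial covariate, no high-atrial arrays (1.79%), an adjusted p under 0.01 or the fibroblast covariate. The difference of antibody effects between the lines called 1 (3.95% of all probe sets), against 0 with 1 probe set per gene, females only (0.822%), males only (0.287%) or no high-atrial arrays (1.06%). The sex comparison called 2, against 0 without high-atrial arrays, and 1 at an adjusted p under 0.01 or with the fibroblast covariate. Leaving out each array in turn gave 6 to 9 (line, IgG), 6 to 7 (line, FG-3149), 0 to 1 (antibody, PKCε), 1 in every run (antibody, FVB/N), 1 in every run (difference of antibody effects), 2 to 3 (sex) and 0 in every run (line by sex). Fewer genes or arrays are tested in the subset settings; for the others the cause was not tested. The fibroblast and ventricular covariates and the setting without PKCε IgG replicates 9 and 10 were chosen after seeing the data.

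Replicate numbers did not pair the samples: the mean residual correlation of same-numbered arrays was -0.0063, 15 of 62 same-numbered pairs had a residual correlation over 0.1, and 4 of 44 arrays were closest to an array of their own number. With the replicate block, Prkce 1452878_at had an antibody difference of 0.25 (adjusted p = 0.0679) in PKCε mice, and Prkcz 1449692_at a line difference of -0.15 (adjusted p = 0.0479) under IgG. Without intensities or detection calls, a probe set near background could not be told from a well-measured one.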
